A study of Mus musculus with 24 samples.

Results

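The genes described here encode the moving parts of the motile cilium: dynein arms, radial spokes, tektins and cilia and flagella associated proteins, together with 2 coiled-coil proteins. Genes were taken by their symbols, whose names begin with Dnah, Dnai, Rsph, Cfap or Tekt, with Ccdc39, Ccdc153, Ccdc40 and Foxj1 added by name. In all, 53 of the 19505 genes on the array met this rule, each read by 1 probe set. Foxj1, Ccdc40, Dnai1 and Dnai2 were not matched under those symbols and have no value among the 53. Both dynein intermediate chains are listed under the older symbols Dnaic1 and Dnaic2, whose values are given beside the others.

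The arrays carried RNA from whole lungs of wild-type mice and of mice labelled as having Marfan syndrome, a connective tissue disorder of the fibrillin-rich elastic matrix. The mice were killed at 6 months of age, and sildenafil, an inhibitor of phosphodiesterase 5, was in the drinking water of the treated mice from 6 weeks of age. The labels give no Marfan allele, strain or sex. There were 6 wild-type vehicle arrays (numbers 13 to 18), 4 wild-type sildenafil arrays (1, 4, 5 and 6), 5 Marfan vehicle arrays (20 to 24) and 5 Marfan sildenafil arrays (8 to 12). The mean log2 level of 3 Y-linked genes was 2.62 to 3.15 on arrays 5, 8, 13, 14, 20 and 21. On the other arrays it was 7.31 to 7.85. Each group thus mixed arrays with and without Y-linked signal, in unequal shares. The treatment text names sildenafil for all samples, those titled vehicle included, so the groups come from the titles. The labels do not say that arrays came from separate animals, so the p-values reflect how far these samples spread, which may be technical.

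A motile cilium is a ring of microtubule doublets around a central pair. Outer and inner dynein arms walk along the neighbouring doublet, radial spokes pass signals from the central pair to the arms, and proteins inside the doublet wall, tektins among them, stiffen it. In the lung such cilia stand on the ciliated cells of the airways, where their beat clears mucus. The ciliated cell program is driven by RFX factors, which bind a palindrome called the X-box, and by the forkhead factor Foxj1.

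The RefSeq promoter table (GRCm38.p6) held an entry for 45 of the 53 genes, covering 250 bases before and 50 after each start. The X-box half-site, GTTNCC, was searched on both strands, where the reverse reads GGNAAC. It was found in 34 of 45 genes, or 75.6%, against 48.8% of 27025 genes in the table. The whole palindrome, GTTNCC followed after 2 bases by GGNAAC, which contains the half-site, was found in 2 of 45 genes, or 4.44%, namely Cfap20dc and Cfap298, against 0.529% of all genes. The forkhead words TGTTTAC and TGTTTGC were found in 4 and 5 of the 45 genes, or 8.89% and 11.1%, against 4.05% and 5.76% of all genes. A match is a description of the letters in these windows, and nothing on binding was measured. The windows below belong to Ccdc153 and Rsph9, which had the lowest p-values for sildenafil in wild-type lungs among genes with an entry, to Tekt4, which had the lowest for sildenafil in Marfan lungs, and to Cfap298, which holds the whole palindrome. Each runs 5' to 3' on the gene's strand over the 250 bases before the start, with GTTNCC or GGNAAC in capitals.
Ccdc153 (chr9:44240427-44240676, plus strand): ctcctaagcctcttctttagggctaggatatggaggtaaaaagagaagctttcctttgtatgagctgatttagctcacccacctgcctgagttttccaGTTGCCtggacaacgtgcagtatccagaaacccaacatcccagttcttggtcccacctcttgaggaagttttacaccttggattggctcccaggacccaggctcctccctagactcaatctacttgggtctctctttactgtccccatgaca
Rsph9 (chr17:46144201-46144450, minus strand): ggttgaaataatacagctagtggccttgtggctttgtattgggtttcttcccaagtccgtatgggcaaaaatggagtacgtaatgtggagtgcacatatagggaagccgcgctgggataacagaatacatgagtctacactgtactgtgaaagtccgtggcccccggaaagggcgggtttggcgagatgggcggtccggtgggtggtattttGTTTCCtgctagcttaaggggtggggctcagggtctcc
Tekt4 (chr17:25471340-25471589, plus strand): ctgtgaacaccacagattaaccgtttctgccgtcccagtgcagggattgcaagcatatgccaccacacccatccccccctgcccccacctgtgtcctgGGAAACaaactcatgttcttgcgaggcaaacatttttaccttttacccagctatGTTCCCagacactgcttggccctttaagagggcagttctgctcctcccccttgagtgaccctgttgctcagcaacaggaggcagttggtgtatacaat
Cfap298 (chr16:90934850-90935099, minus strand): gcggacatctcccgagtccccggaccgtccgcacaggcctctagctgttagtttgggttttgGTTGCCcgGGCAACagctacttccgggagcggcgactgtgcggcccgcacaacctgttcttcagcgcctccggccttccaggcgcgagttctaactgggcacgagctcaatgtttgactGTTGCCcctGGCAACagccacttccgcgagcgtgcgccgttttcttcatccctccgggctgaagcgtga
The Ccdc153 half-site lay 152 bases before the start and that of Rsph9 38 bases before it. Tekt4 had half-sites 152 and 98 bases before the start. Cfap298 had 4 half-sites, at 188, 180, 69 and 60 bases before the start, the farther pair of which forms the palindrome. Rsph1, which had the lowest unadjusted p of the 53 genes over all comparisons, has no entry.

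Most of these genes were measurable in whole lung. For each array the 95th percentile of 1450 smell, taste and pheromone receptor genes, assumed here to be mostly silent in whole lung, served as a reference for absent signal. Above it on all 20 arrays were 47 of the 53 genes, and Dnah8 was above it on 19. The 5 others were below it on most arrays: Cfap97d1 and Rsph6a were above on 0 arrays, Dnah17 and Tekt3 on 3, and Cfap97d2 on 8. Rsph6a, Tekt3 and Dnah17 are best known from sperm flagella. All 13 of 13 other ciliated cell markers and 10 of 10 club cell markers were above the reference on all arrays, whereas 0 of 6 male germ cell markers were and 3 were above on none. Rsph3a and Rsph3b are near-identical copies, and Dnah7a has close relatives, so their probe sets may share signal.

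**Figure D1:**
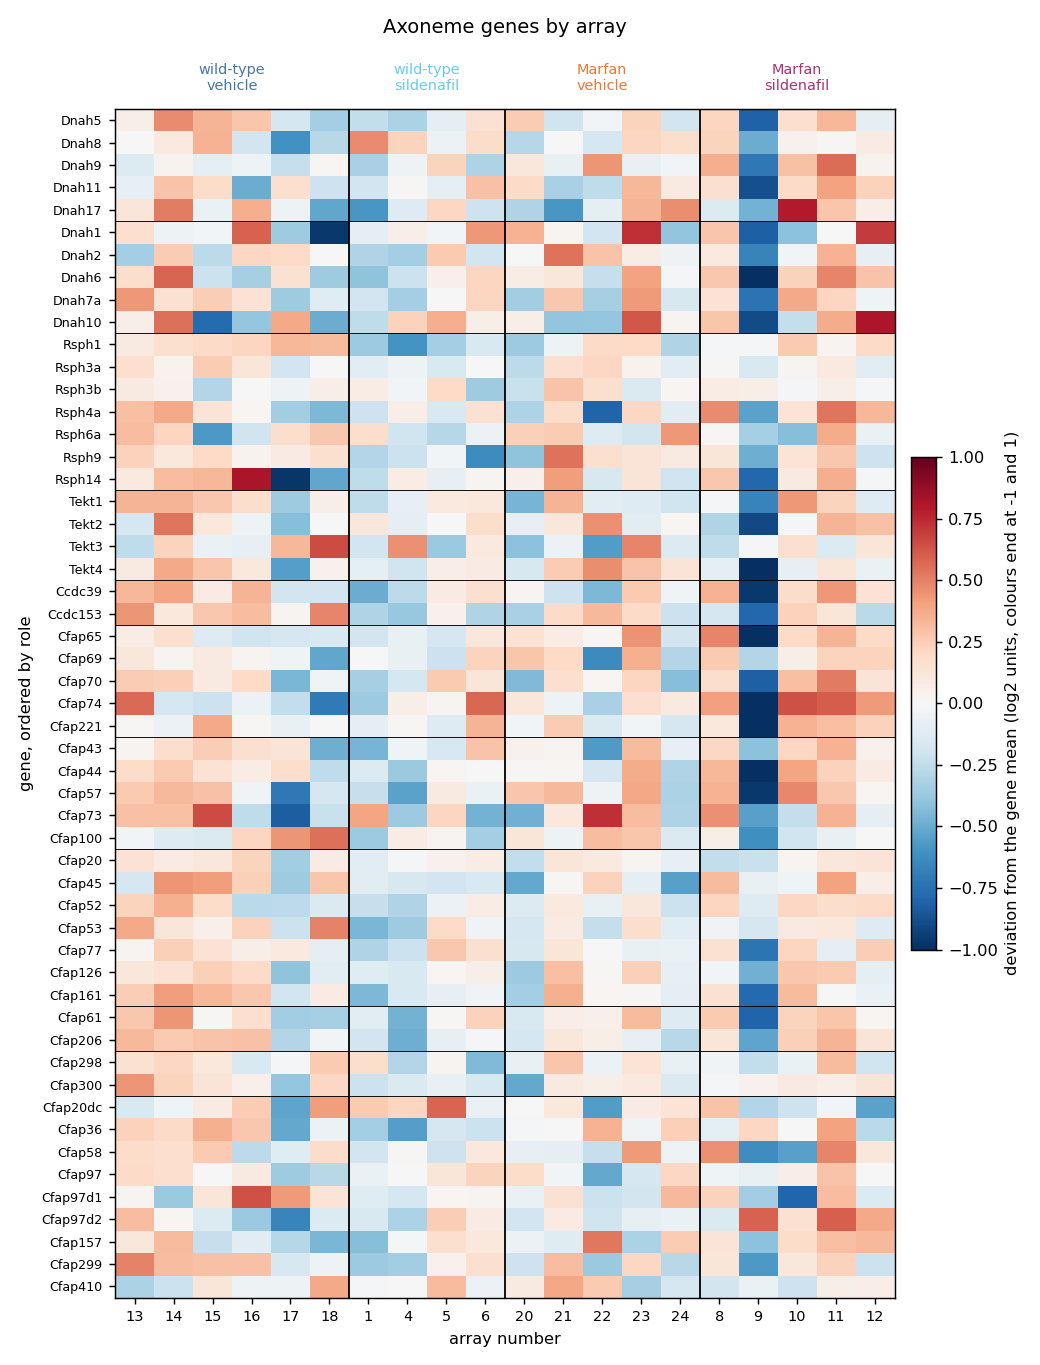
Each cell is the deviation of 1 gene (rows, ordered by role from outer arm dyneins to other Cfap genes) on 1 array (columns, numbered, grouped as headed) from that gene's mean over the 20 arrays, in log2 units, with colours ending at -1 and 1. Array 9 of the Marfan sildenafil group is dark blue in most genes, and array 11 beside it is mostly red.

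The 53 genes varied together from array to array. For each array the median over the genes of the deviation from the gene's own mean, a log2 value, was taken. Among wild-type vehicle arrays these medians ranged from -0.195 to 0.21, with a group median of 0.11. They were -0.19, -0.15, 0.016 and 0.074 on the 4 wild-type sildenafil arrays, and -0.081, 0.11, -0.057, 0.18 and -0.095 on the 5 Marfan vehicle arrays. In the Marfan sildenafil group, arrays 8 to 12 had 0.15, -0.55, 0.14, 0.28 and 0.064. Array 9 stood far below every other array, and array 11 was the highest. The group means were 0.055 ± 0.15 (SD, n = 6) for wild-type vehicle, -0.064 ± 0.13 (n = 4) for wild-type sildenafil, 0.010 ± 0.12 (n = 5) for Marfan vehicle and 0.017 ± 0.32 (n = 5) for Marfan sildenafil. All 4 groups overlapped, and the spread between arrays of 1 group exceeded the differences between group means. In bulk lung, fewer ciliated cells and less RNA per cell cannot be told apart.

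**Figure D2:**
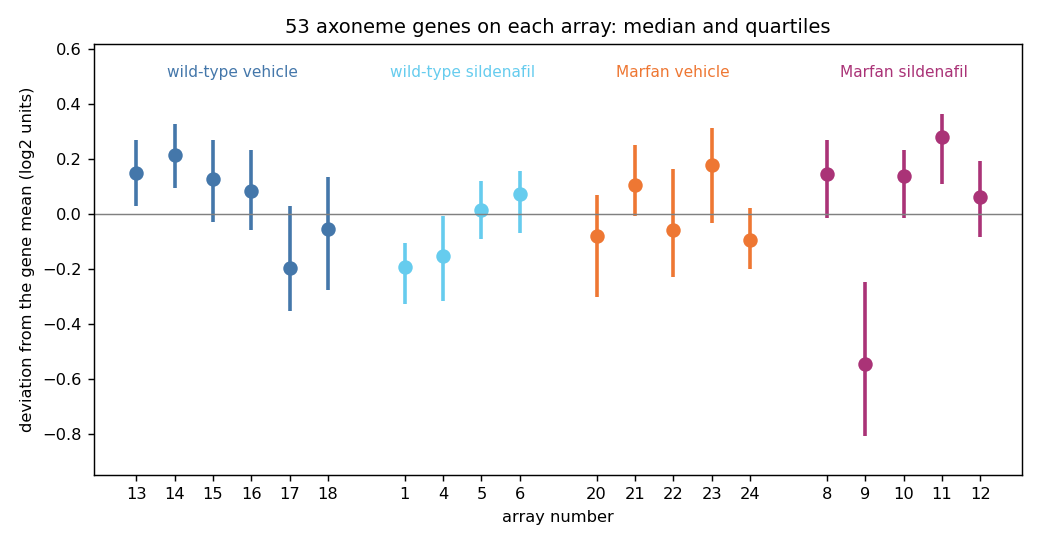
Points are the median, and bars the quartiles, over the 53 genes of the deviation from each gene's mean (log2 units, vertical axis) on each of the 20 arrays (horizontal axis, by group). The median of array 9 is -0.55, while the other 19 lie between -0.195 and 0.28.

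After each gene was centred within its group and scaled to equal variance, 1 component held 42.9% of the variance of the 53 genes, against 15.5% over all 19505 genes. Of the 53, 50 had the same sign on it. Without array 9 the share was 32.0%, against 14.2% over all genes, and 47 genes had the same sign. All genes include those with little signal, among them the 1450 receptor genes, whereas most of the 53 were measurable. No set matched in number or level was compared. The strongest weights without array 9 were those of Cfap70, a central apparatus protein, Cfap126, which lies inside the doublet, Cfap299 and Dnah7a, an inner arm chain. The 6 genes of the other sign were Cfap100, Rsph6a, Cfap97d1, Cfap410, Tekt3 and Dnah10. Rsph6a, Cfap97d1 and Tekt3 were among the genes below the reference on most arrays. These genes were named after their weights were seen.

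On array 9, 48 of the 53 genes (90.6%) were below the mean of the 4 other Marfan sildenafil arrays, compared with 52.6% of all genes, with a median difference of -0.72 against -0.024 log2 units. The genes that were lower than on each of the 4 others numbered 42 (79.2%), against 31.2% of all genes. The differences ran from -2.07 for Cfap74, of the central apparatus, to 0.34 for Cfap97d2. Dnah6, an inner arm heavy chain, differed by -1.59, Cfap221 by -1.50, Cfap44, part of the complex that tethers inner arm dynein, by -1.34 and Cfap65 by -1.32. Rsph1 and Cfap300, a dynein assembly factor, differed by only -0.13 and -0.024, and Cfap36 by 0.19. Cfap74, Dnah6, Cfap221 and Cfap300 were named after their values were seen. Array 9 held the lowest of all 20 values in 26 of the 53 genes. The share over all genes was not computed, so this count is no trait of the axoneme genes. On the same array the mean of 13 other ciliated cell markers deviated by -0.45 from their mean over all arrays and that of 10 club cell markers by -0.33, while 6 endothelial markers were at -1.19, 5 alveolar type 1 markers at -0.67, 4 immune markers at 0.56 and 4 basal cell markers at 2.65. The part of these other cell types in the low axoneme values was not tested. The comparisons of the 53 genes below are given with all arrays and without array 9. That array was set apart on the values of these same genes. Leaving it out therefore raises most of them wherever the Marfan sildenafil arrays enter. The counts without it are a description and no support for a difference, also where a share over all genes stands beside them.

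No gene of the 53 passed the test in any comparison. Differences are in log2 units after quantile normalization between arrays, tested with limma and corrected for testing 19505 genes (Benjamini-Hochberg, threshold 0.05). In each of the 7 comparisons 0 of 53 axoneme genes and 0% of all genes were called. Unadjusted p under 0.05 is therefore used below only to describe, with its share over all genes beside it. The same test was also run on simulated data for sildenafil in wild-type mice. In these, 67 genes were changed by 0.5 log2 units, 67 by 1 unit and 66 by 2 units, all at once. The test recovered 23.9% of changes of 0.5 log2 units, 88.1% of 1 unit and 100% of 2 units. The larger changes make the adjusted threshold easier to pass than in the real data, where 0 genes were called. A lone change may therefore be recovered less often there. Most changes of 0.5 units were thus missed in the simulated data. Whether these shares hold for the 53 genes, which varied together, was not tested.

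The first comparison was Marfan against wild-type lung under vehicle. Of the 53 genes, 32 were lower and 21 higher in Marfan lungs, with a median difference of -0.047, against -0.0048 and 51.2% lower over all genes. Unadjusted p was under 0.05 for 1 lower gene, Rsph1, or 1.89% of the 53, against 2.78% of all genes, and for 0 higher genes. Without array 9, 2 lower genes (3.77%, against 3.41% of all genes) had such a p, and the difference estimates stayed as they were, since that array is in neither group. Over single arrays left out, this count ran from 0 to 5 and the median from -0.021, without array 14, to -0.094, without array 17, and it was also more than 1.5 times nearer to 0 without array 20, 22 or 24. By role, the 7 Cfap proteins inside the doublet were all lower, with a median of -0.11, the tektins were split into 2 lower and 2 higher, and 7 of 10 dynein heavy chains were higher, with a median of 0.078. The lowest adjusted p of any member was 0.789 by limma. The direction depended on the scaling: in the deposited values, where the median of all genes moved to 0.25, 2 of the 53 were lower and their median was 0.26, so that relative to all genes they stood at 0.013.

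Rsph1, of the radial spoke head, ranged from 6.45 to 6.69 on the 6 wild-type vehicle arrays, with a median of 6.56. On the Marfan vehicle arrays it was at 6.00, 6.31, 6.55, 6.56 and 6.06, 3 of them below every wild-type vehicle array and 2 within their range. The difference was -0.28 ± 0.12 (SE; adjusted p = 0.789, limma). It was 0.080 in the deposited values, where the median of all genes had moved up as well. Cfap45, inside the doublet wall, ranged from 6.24 to 7.04 in wild-type vehicle, with a median of 6.86, and was 6.08, 6.61, 6.83, 6.51 and 6.06 in Marfan vehicle. Its groups overlapped, and the difference was -0.32 ± 0.16. Cfap53, another inner doublet protein, differed by -0.23 ± 0.13. Among genes that were higher, those with the smallest p were Cfap157, with 0.16 ± 0.17, Cfap65, with 0.17 ± 0.18, and the inner arm chain Dnah2, with 0.16 ± 0.18, none larger than its standard error. The inner arm chain Dnah1, named after its value was seen, had the most positive difference, 0.21 ± 0.26.

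The second comparison, sildenafil against vehicle in wild-type lungs, gave the most one-sided split of the 7 with all arrays. Of the 53 genes, 41 were lower under sildenafil, with a median of -0.13, against -0.0018 and 50.4% lower over all genes. Unadjusted p was under 0.05 for 7 lower genes, or 13.2%, against 4.45% of all genes, and for 0 higher ones. Without array 9, which is in neither group, 8 lower genes (15.1%, against 5.14% of all genes) had such a p and the lowest adjusted p was 0.116 by limma. Over single arrays left out, this count ran from 4 to 10. All 7 radial spoke genes, the 7 inner doublet Cfap genes and all 5 inner arm tether genes were lower, with medians of -0.125, -0.14 and -0.18. Other roles were mixed: 3 of 4 tektins were lower, 6 of 10 dynein heavy chains, 3 of 5 central apparatus genes, with a median of -0.010, and 4 of 9 other Cfap genes, with a median of 0.064. The median of the 53 genes was -0.077 without array 4 and -0.075 without array 14, with 39 and 36 genes lower. In the deposited values 6 of the 53 were lower and their median was 0.24, where that of all genes was 0.28. With each array's deposited median brightness in the fit, 49 were lower with a median of -0.39. The wild-type vehicle arrays were the dimmest group, with deposited medians from 5.32 to 5.83 against 5.87 to 6.19 in wild-type sildenafil. These ranges do not overlap, so brightness and treatment cannot be told apart here, and the part of brightness was not tested.

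Rsph1 was at 5.99, 5.76, 6.02 and 6.20 on the 4 wild-type sildenafil arrays, all below the 6.45 to 6.69 of the vehicle group. The groups did not overlap, and the difference was -0.58 ± 0.13 (SE; adjusted p = 0.266, limma). Over the alternatives, the difference ran from -0.65 to -0.20 and the adjusted p from 0.0981 to 0.737. Rsph9, another protein of the spoke head, ranged from 7.38 to 7.57 in wild-type vehicle, with a median of 7.47, and was 7.05, 7.13, 7.31 and 6.71 under sildenafil. These groups did not overlap either, with a difference of -0.43 ± 0.16 (adjusted p = 0.436, limma). Its difference was -0.055 in the deposited values, where the median of all genes was itself above 0, as given above. Rsph4a, a further head protein, was 9.17, 9.44, 9.23 and 9.53 under sildenafil, inside the vehicle range of 8.93 to 9.76, with a difference of -0.043 ± 0.20. The 3 proteins of the spoke head were thus measured with unlike differences, and the differences among them were not tested.

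Ccdc153, assigned to the nexin-dynein regulatory complex that links doublets, ranged from 8.58 to 9.04 in wild-type vehicle, with a median of 8.84. Under sildenafil it was 8.25, 8.18, 8.60 and 8.25, where only array 5 reached the lowest vehicle value. The difference was -0.51 ± 0.16 (SE; adjusted p = 0.380, limma). Ccdc39, a ruler protein that sets the spacing of spokes and inner arms, was 7.17, 7.41, 7.75 and 7.83 against 7.47 to 8.06 in the vehicle group, with overlap and a difference of -0.26 ± 0.21. The other genes with unadjusted p under 0.05 were Cfap36, with -0.40, the inner doublet genes Cfap161, with -0.37, and Cfap53, with -0.34, and the spoke-associated Cfap206, with -0.34. Of these, Cfap161 was named after its values were seen. Among genes that were higher, those with the smallest p were Dnah8, with 0.31 ± 0.19, Cfap20dc, with 0.25 ± 0.20, and Dnah10, with 0.21 ± 0.28. Cfap74, with 0.21 ± 0.31, was about as high as Dnah10.

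The 5 outer arm heavy chains, among them Dnah17, which was below the reference on most arrays, had a median of -0.040 in the same comparison. Dnah5 ranged from 6.61 to 7.43 in wild-type vehicle, with a median of 7.12, and was 6.71, 6.64, 6.86 and 7.10 under sildenafil, a difference of -0.23 ± 0.19. Dnah9 was 6.25, 6.52, 6.80 and 6.27 against 6.34 to 6.61, a difference of -0.040 ± 0.18, and Dnah11 differed by 0.033 ± 0.20. The groups overlapped in each. The intermediate chains listed as Dnaic1 and Dnaic2 differed by -0.18 ± 0.16 and -0.15 ± 0.22. Cfap126, inside the doublet, was 10.09, 10.06, 10.23 and 10.27 against 9.81 to 10.45, with a difference of -0.078 ± 0.14. Of the tektins, Tekt1 differed by -0.17 ± 0.18, Tekt2 by 0.049 ± 0.20 and Tekt4 was 6.69, 6.59, 6.86 and 6.87 against 6.24 to 7.17. None of these ranges separated the groups.

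Markers of other cell types were read in the same comparison of sildenafil with vehicle in wild-type lungs, and none passed the adjusted test. Of 13 ciliated cell markers outside the 53 genes, 12 were lower, with a median of -0.24, and their mean level ran from 7.93 to 8.12 against 7.90 to 8.42 in vehicle. Of 10 club cell markers, secretory cells of the same airways, 9 were lower, with a median of -0.27, and their mean level ran from 9.32 to 10.59 against 9.96 to 10.66. All 6 of 6 endothelial markers were higher, with a median of 0.27, and their mean level ran from 10.36 to 10.52 against 10.05 to 10.37. The medians of alveolar type 1, alveolar type 2, immune, goblet and basal markers lay between 0.0061 and 0.032. The part of these cell types in the axoneme values was not tested.

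**Figure D3:**
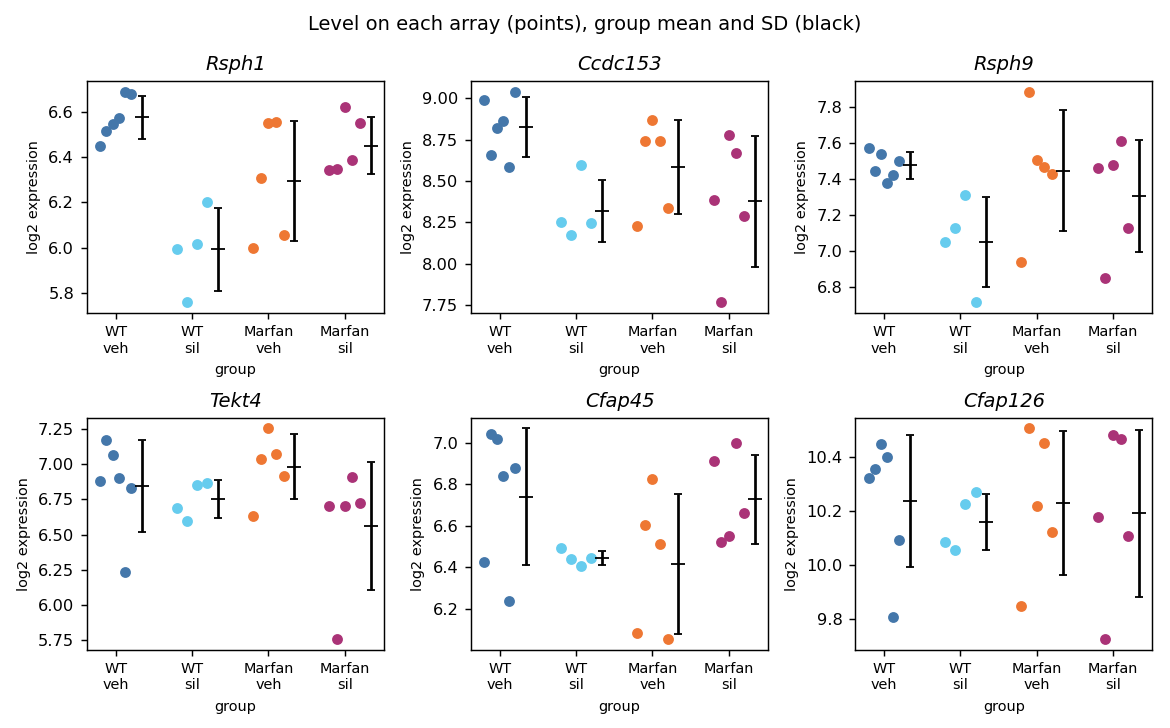
Points are log2 expression (vertical axes) of 6 axoneme genes on each array, by group (WT, wild-type; veh, vehicle; sil, sildenafil), and the black marks are the group mean and SD. The 4 wild-type sildenafil points of Rsph1 and Rsph9 lie below all 6 wild-type vehicle points, while those of Tekt4, Cfap45 and Cfap126 lie within the vehicle range.

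The third comparison was sildenafil against vehicle in Marfan lungs, and it turned with array 9. With all arrays, 28 of 53 genes were lower and 25 higher, with a median of -0.012, against -0.0067 and 51.6% lower over all genes. Unadjusted p was under 0.05 for 1 lower gene, Tekt4, and 1 higher gene, Cfap97d2, each 1.89% of the 53, against 3.41% of all genes lower and 3.29% higher. Without array 9, 41 of 53 were higher, with a median of 0.14, and 7, or 13.2%, had unadjusted p under 0.05 in the higher direction, against 3.43% of all genes. None passed the adjusted test. Over the other arrays left out, the median ran from -0.071, without array 11, to 0.018, without array 23, and it was also above 0 without array 21 (0.0090). Without array 8, 10, 20, 22 or 24 it lay between -0.040 and -0.026.

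Tekt4, a filament protein of the doublet, was 6.63, 7.04, 7.26, 7.08 and 6.92 in Marfan vehicle and 6.70, 5.76, 6.71, 6.91 and 6.72 in Marfan sildenafil. The 5.76 belongs to array 9. The difference was -0.43 ± 0.19 (SE; adjusted p = 0.725, limma) with it and -0.22 without it. Rsph4a was 9.07, 9.57, 8.58, 9.59 and 9.27 in Marfan vehicle and 9.86, 8.84, 9.51, 9.92 and 9.71 in Marfan sildenafil. Here array 9 was the lowest and 3 of the other 4 lay above every vehicle array, with a difference of 0.35 ± 0.20 with array 9 and 0.53 ± 0.17 without it.

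Cfap45 was 6.91, 6.52, 6.55, 7.00 and 6.66 in Marfan sildenafil, overlapping the Marfan vehicle values given above, with a difference of 0.31 ± 0.17. Cfap97d2, below the reference on most arrays, differed by 0.41 ± 0.18. Cfap100, part of an inner arm tether, differed by -0.27 ± 0.16 and Ccdc153 by -0.21 ± 0.16, the latter moving to -0.053 without array 9. Rsph1 was 6.34, 6.35, 6.62, 6.39 and 6.55 in Marfan sildenafil, all above the Marfan vehicle median of 6.31, with overlap. Rsph9 was 6.94, 7.89, 7.50, 7.47 and 7.43 in Marfan vehicle and 7.46, 6.85, 7.48, 7.61 and 7.13 in Marfan sildenafil, which overlapped.

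**Figure D4:**
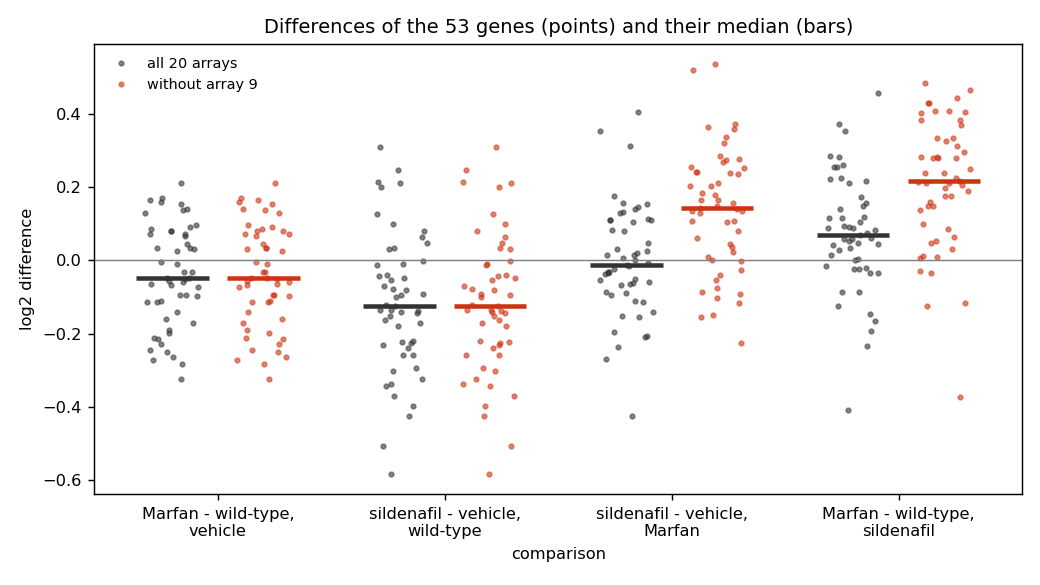
Points are the log2 differences (vertical axis) of the 53 genes in 4 comparisons (horizontal axis), and bars are their medians, with all 20 arrays in black and without array 9 in red. Leaving out array 9 moves the median from -0.012 to 0.14 for sildenafil in Marfan lungs and from 0.069 to 0.22 for Marfan against wild-type under sildenafil.

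The fourth comparison was Marfan against wild-type under sildenafil. It shares the wild-type sildenafil arrays with the sildenafil comparison in wild-type lungs and the Marfan sildenafil arrays with that in Marfan lungs. Of the 53 genes, 39 were higher and 14 lower in Marfan lungs, with a median of 0.069, against -0.0049 over all genes, of which 51.2% were lower. Unadjusted p was under 0.05 for 2 higher genes, Rsph1 and Cfap36, or 3.77%, against 1.87% of all genes. Without array 9, 48 of 53 were higher with a median of 0.22, and 12, or 22.6%, had unadjusted p under 0.05, against 1.68% of all genes. Without array 11 the split was 28 lower and 25 higher, with a median of -0.0045. The count therefore depended on which Marfan sildenafil array was left out. The rise without array 9 followed from the low values of these genes on it.

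By gene, Rsph1 differed by 0.46 ± 0.14 (SE; adjusted p = 1.00, limma), and all 5 Marfan sildenafil values, from 6.34, lay above all 4 wild-type sildenafil values, which reached 6.20. Cfap36 was 6.15, 5.94, 6.33 and 6.28 in wild-type sildenafil and 6.41, 6.70, 6.50, 6.90 and 6.23 in Marfan sildenafil, overlapping by array 12, with a difference of 0.37 ± 0.17. Cfap52, inside the doublet, differed by 0.26 ± 0.14. The most negative were Cfap20dc, with -0.41 ± 0.21, Dnah8, with -0.23 ± 0.19, and Tekt4, with -0.19 ± 0.20, the last of which was 0.0079 without array 9. Without array 9, the outer arm chain Dnah9 differed by 0.43, Ccdc39 by 0.40, Cfap206 by 0.40, Cfap65 by 0.38 and Cfap44 by 0.38, and none passed the adjusted test.

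The interaction asks whether sildenafil acted differently in the 2 genotypes, and is the test of the difference between the sildenafil comparisons in wild-type and in Marfan lungs. Its value was positive, meaning that the sildenafil difference was the more positive one in Marfan lungs, for 38 of 53 genes, with a median of 0.087 against -0.0028 over all genes. Unadjusted p was under 0.05 for 4 genes, all positive, or 7.55%, against 1.96% of all genes. The largest was Rsph1, with 0.74 ± 0.18 (SE; adjusted p = 0.984, limma), ahead of Cfap45, with 0.61 ± 0.24, and Cfap206, with 0.47 ± 0.21. Among genes with a negative value, those with the smallest p were Cfap20dc, with -0.36 ± 0.28, Tekt4, with -0.33 ± 0.26, and Dnah8, with -0.32 ± 0.26, and Dnah1 was at -0.36 ± 0.38. Without array 9, 46 of 53 were positive with a median of 0.27, and 10, or 18.9%, had unadjusted p under 0.05, against 2.11% of all genes. Without array 11, 30 were positive with a median of 0.027, the lowest over single arrays left out. The median was 0.043 without array 8, and without array 6, 17 or 23 it was 0.14, 0.16 and 0.15. In the deposited values 38 of 53 were negative, with a median of -0.21 where all genes had -0.24.

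The averages over the other factor gave the following. For genotype, 29 of 53 were higher and 24 lower in Marfan lungs, with a median of 0.012. Unadjusted p was under 0.05 for 0 of them, against 2.8% of all genes higher and 2.55% lower. Without array 9, 42 were higher, with a median of 0.086, and 5 (9.43%) had such a p, against 2.77% of all genes. Without array 11, 33 were lower, with a median of -0.022. The most positive were Cfap97d2, with 0.21 ± 0.13, Cfap36, with 0.20 ± 0.11, and Dnah9, with 0.19 ± 0.13, and the most negative Cfap20dc, with -0.23 ± 0.14, Tekt3, with -0.15 ± 0.15, and Tekt1, with -0.12 ± 0.13. For sildenafil, 38 of 53 were lower, with a median of -0.058, and 4, or 7.55%, had unadjusted p under 0.05, all lower, against 5.73% of all genes. Without array 9 the same median was 0.021, with 31 higher and 22 lower, and 5 lower and 2 higher genes (9.43% and 3.77%) had such a p, against 6.4% and 6.64% of all genes. Ccdc153 had the lowest adjusted p of any member in any comparison, 0.221 by limma, with -0.36 ± 0.11 (SE). Cfap100 differed by -0.29 ± 0.12 and Rsph9 by -0.28 ± 0.11, while Cfap97d2 differed by 0.27 ± 0.13, Rsph4a by 0.15 ± 0.14 and Dnah8 by 0.15 ± 0.13.

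Genes that build and serve the axoneme were read from 6 lists chosen with earlier results of these data known, and 0 of their genes passed the adjusted test in any comparison. Of 18 regulators of cilium formation, all 18 were measured. For the genotype average 10 were higher and 8 lower, with a median of 0.012. Those with the smallest p there were Mcidas, which starts the ciliated program, with -0.27 ± 0.11, and Ccno, needed for multiplying centrioles, with 0.36 ± 0.17. Under sildenafil 11 of these 18 were lower in wild-type lungs and 6 in Marfan lungs. Of 21 dynein assembly factors, 11 were measured, and for sildenafil in wild-type lungs 5 were lower and 6 higher. In Marfan lungs 2 were lower and 9 higher. Of 19 light chain and docking genes, 9 were measured, 7 of them lower under sildenafil in wild-type lungs and 6 in Marfan lungs. Of 25 central pair and nexin-dynein regulatory genes, 22 were measured. For sildenafil in wild-type lungs 17 of the 22 were lower, against 50.4% of all genes, with a median of -0.11. In Marfan lungs 2 of the 22 were lower, against 51.6% of all genes, with a median of 0.095. The interaction, which tests the difference between these sildenafil comparisons gene by gene, had a median of 0.24 and called 0. Spef2, of the central pair, had the smallest p there, with 0.59 ± 0.25. Of 23 further inner doublet genes, 15 were measured, 10 of them lower under sildenafil in wild-type lungs and 8 in Marfan lungs. Of 30 intraflagellar transport genes, which also serve non-motile cilia, 25 were measured, 17 of them lower under sildenafil in wild-type lungs. Ift140, of the retrograde transport complex, had the smallest p of this list for sildenafil in Marfan lungs, with -0.45 ± 0.12 (adjusted p = 0.677, limma). In that comparison 13 of the 25 were higher and 12 lower.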

How the data were processed

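Per the labels' protocols, high-integrity total lung RNA was labelled for Affymetrix arrays with a Pico reagent kit. Per the submitters' processing notes, Affymetrix Expression Console and RMA were used, and the deposited values are log2 intensities per probe set. The table has 24 columns; 4 carry no values, titled as failing quality control, and the other 20 arrays were used. Of 29129 entries, 22206 were transcript probe sets, 19572 with 1 symbol in the platform annotation and 2634 with none; the probe set with the highest mean was kept per gene, giving 19505 genes.

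Values were quantile-normalized and fitted with limma 3.58.1 (R 4.3.3), with 1 mean per group, 16 residual degrees of freedom, a variance trend and 7 comparisons. Up to 3 genes per direction with the smallest p were named in each comparison, and a fixed list of ciliary genes was always named. Alternatives were deposited or median-centred values, no trend, a filter on dim genes, the mean of probe sets, only the groups compared, brightness or Y-linked genes as covariates, array weights and leaving out each array. Members and lists were chosen with earlier results of these data known. The labels name no scan date or batch. The code was tested on simulated data. The number of arrays limits the precision.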

Additional observations from a re-analysis of the deposited data

Results flagged for a closer look

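In 116 groups of values (29 measures in 4 groups), 13 had 1 array set apart from the rest of its group by Dixon's test at 95%, which chance gives in about 1 of 20 groups. The genes vary together, so these are not independent. Array 9 of the Marfan sildenafil group accounted for 9 of them, all low: the median deviation of the 53 genes, at -0.55 log2 units, and the levels of Ccdc39 (6.70), Cfap157 (5.78), Cfap206 (7.54), Cfap44 (7.01), Cfap52 (7.12), Cfap65 (7.22), Dnah11 (6.25) and Tekt4 (5.76). In the wild-type vehicle group, array 18 was low in Cfap43 (7.99) and Cfap44 (7.83), and array 17 in Tekt4 (6.24). In the Marfan vehicle group, array 22 was low in Cfap20dc (4.203).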

How the results depend on the processing

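No axoneme gene passed the adjusted test in any comparison under the 9 other settings or without any 1 of 20 arrays. Their lowest adjusted p over all of these was 0.0981, for sildenafil in wild-type lungs with array weights. No paired analysis was possible because array numbers are not shared between groups. Genes called over the whole array went from 0 to 5, 2 and 3 in the deposited values, in turn for Marfan against wild-type with vehicle, the genotype average and the sildenafil average, and to 1, 5 and 68 with array weights. Leaving out 1 array gave 0 to 2, 0 to 2 and 0 to 74 in these, the 74 without array 9 and 25 without array 10. The median of the 53 genes moved beyond the spread between arrays in the deposited values, to 0.26 for the vehicle-treated genotypes, 0.24 for sildenafil in wild-type lungs and -0.21 for the interaction, and with brightness as a covariate to -0.39 and 0.36 for the last 2.

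Of 1196 values for named genes under alternatives, 1183 kept direction and side of the threshold. Many of these could not change direction. Leaving out an array outside the groups compared does not move their difference, and neither does a change of the test alone. With 1 probe set per gene, the mean of probe sets is the same value. The count is therefore no measure of how stable the results are. With brightness as a covariate, signs turned for Cfap157 (-0.082), Cfap65 (-0.20) and Dnah2 (-0.029) in Marfan against wild-type under vehicle, Dnah8 (-0.031) and Dnah10 (-0.14) for sildenafil in wild-type lungs, Tekt4 (0.042) in the interaction, and Dnah8 (-0.034) and Rsph4a (-0.11) in the sildenafil average. In the deposited values they turned for Rsph1 (0.080), Cfap45 (0.041) and Cfap53 (0.094) in Marfan against wild-type under vehicle and Tekt1 (0.047) in the genotype average. For Marfan against wild-type under sildenafil, Tekt4 turned to 0.0079 without array 9 and ran from there to -0.28 over the arrays left out. Apart from scaling, whose construction moves all genes, the cause was not tested.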
